A study of Rattus norvegicus with 8 samples.

Results

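The genes described here are 37 rat genes of cholesterol synthesis, sterol control and lipid handling, measured on 8 microarrays of macrophages exposed to zinc oxide (ZnO). They were chosen by name, and their probes were those whose transcript accession belongs to a RefSeq transcript of the gene: 48 probes of the 45598 non-control probes on the array. The genes fall into 4 groups: 18 enzymes of sterol synthesis, 6 genes that control SREBP or carry sterol to the endoplasmic reticulum, 9 genes of LXR, efflux and lipoprotein or droplet handling, and 4 enzymes of fatty acid synthesis. In all, 34 of the 37 genes passed the filter on background, beside 13460 genes tested on the whole array.

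The cells were NR8383, a macrophage line derived from the lung lavage of a normal rat and grown in medium with fetal bovine serum. ZnO was given for 4 h at a dose of 4 µg/mL or of 16 µg/mL, and each dose has 4 arrays, biological replicates by the series' design. The sample descriptions give 20 passages for the cultures at 4 µg/mL and 200 passages for those at 16 µg/mL, and nothing in the labels shows whether this gap is real or a typing slip. Untreated cells of the same design were not analysed here, and every difference below is 16 minus 4 µg/mL. The slide, its scan and the stated passage number all change with the dose, so their effects and that of the dose cannot be told apart. Of 15 alveolar macrophage markers on the array, 13 were well above background on all 4 arrays at each dose, and Marco and Adgre1 were not. In total, 2 of the 13 macrophage markers tested were lower at 16 µg/mL and 0 higher, beside 21.9% lower and 19.8% higher over all genes tested. In a bulk culture, fewer cells of a kind and less RNA per cell cannot be told apart. Of other cell types, 0 of 8 lung epithelium, 0 of 3 neutrophil and 0 of 1 B cell markers cleared background on all 4 arrays of a dose, against 1 of 5 for fibroblasts (Dcn), 2 of 4 for endothelium (Pecam1 and Cdh5) and, at 4 µg/mL alone, 1 of 3 for T cells (Cd3d). Their part in the results was not tested.

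Cholesterol is built from acetyl-CoA through mevalonate, farnesyl pyrophosphate, squalene and lanosterol. When sterol in the endoplasmic reticulum is low, SCAP escorts the SREBP proteins to the Golgi, where they are cut and released as transcription factors for these enzymes; INSIG proteins hold SCAP back when sterol is high. The liver X receptors (LXR, encoded by Nr1h3 and Nr1h2) sense oxysterols and drive efflux genes, which in alveolar macrophages serve the handling of surfactant lipid.

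Levels below are log2 processed signal relative to the 75th percentile of the same array, so a level of 0 equals that percentile, and replicates are given in the order 1 to 4. A gene was called when its limma adjusted p over all genes tested was under 0.05. The array's 75th percentile signal ranged from 151 to 516, and was lowest on replicates 2 and 3 at 16 µg/mL (151 and 190). No spot was saturated. Arrays of the same dose correlated at 0.970 to 0.991, and arrays of different doses at 0.914 to 0.948. The 10 E1A control probes, which read RNA added in the laboratory, differed between the doses by -0.65 to 1.57 with a median of 1.12, and the differences of all 11 lipid genes called higher lie inside that range, while those of the 6 called lower lie below it. A lone control probe set the low end of the range (-0.645, with the next at -0.23), and Stard4 lay barely below it (-0.654). Whether these control probes and the genes shifted together was not tested. Replicate 4 at 4 µg/mL had an area of low signal over 4.85% of its spots, which held spots of Acat2, Sqle, Acly, Msmo1, Nr1h2 and Insig2. With that area masked, no tested lipid gene changed its call.

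Among the 34 measured genes, 11 were higher and 6 were lower at 16 µg/mL, and 17 were not called. Acat2 (higher) and Srebf1 (lower) are counted by their brightest probe, though a further probe of each was called in the opposite direction. Over all genes tested, 19.8% were called higher, 21.9% lower and 41.7% in either direction, beside 32.4% higher, 17.6% lower and 50.0% in either direction among the 34 lipid genes. Whether these shares differ was not tested. Mylip and Acaca passed the filter through the dose at which they were brighter, so the filter favoured a difference in these 2 genes. Over the other 32 genes, 10 were higher (31.2%) and 5 lower (15.6%). The median difference was 0.13 for the lipid genes and 0.00 for all genes, and the median absolute difference was 0.46 and 0.47. The arrays of the doses did not overlap for 16 of the 34 genes (47.1%), beside 39.9% of all genes. With no scaling between arrays the median gene differed by -0.75, and 0 lipid genes were called higher and 10 lower; the split over all genes was then 229 higher and 4417 lower, against 2669 and 2943 in the scaled data. Leaving out replicate 1 or replicate 3 at 4 µg/mL, or replicate 2 at 16 µg/mL, lowered the count of lipid genes called higher from 11 to 7. The count over all genes fell too, from 2669 to 2034, 1953 and 2162 in that order. Without replicate 2 at 16 µg/mL, Mylip did not pass the filter and was not tested.

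**Figure D1:**
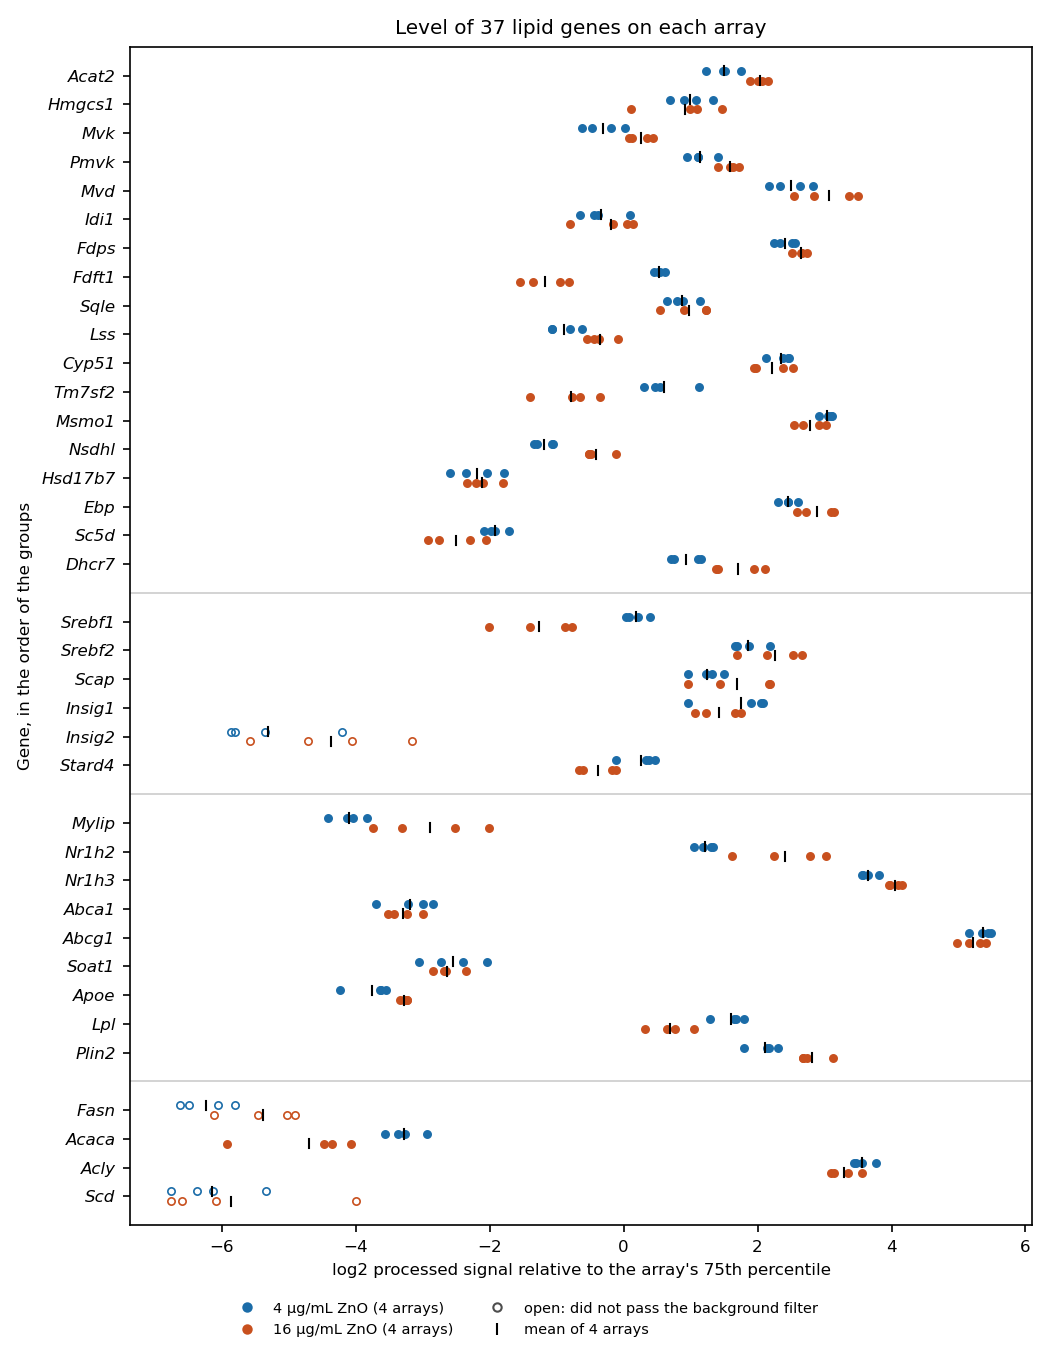
Log2 processed signal of each of the 37 genes on each array, relative to the array's 75th percentile (x axis), with genes on the y axis in the order of the 4 groups. Each point is 1 array (blue, 4 µg/mL; orange, 16 µg/mL; 4 arrays each), the short black bar is the mean of 4 arrays, and open points mark the 3 genes that did not pass the background filter. The orange points of Fdft1 lie between -1.55 and -0.81, all below the blue ones.

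Enzymes of sterol synthesis were all measured (18 of 18). At 16 µg/mL, 7 of them were higher by 0.43 to 0.78 on the log2 scale, 2 were lower by more than 1, and 9 were not called. Over all genes tested, 19.8% were called higher and 21.9% lower, and whether the group differs was not tested. The group's median difference was 0.19. The higher genes were Acat2 (by its brightest probe only), Mvk, Pmvk, Lss, Nsdhl, Ebp and Dhcr7, and the lower ones were Fdft1, which commits farnesyl pyrophosphate to sterols, and Tm7sf2. Leaving out replicate 1 or 3 at 4 µg/mL lowered the count of higher genes in this group from 7 to 3, and leaving out replicate 2 or 3 at 16 µg/mL lowered it to 4. The count over all genes, 2669 with every array, was then 2034 or 1953, and 2162 or 1980.

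Fdft1, which encodes squalene synthase, had the largest difference of all the lipid genes. Fdft1 read 0.62, 0.54, 0.51 and 0.46 at 4 µg/mL and -0.81, -1.35, -0.96 and -1.55 at 16 µg/mL. Every array at the higher dose lay below every array at the lower one. Its level was 3.25-fold lower (difference -1.70, SE 0.17, adjusted p = 4.12e-05), and 5.18% of all genes fell as far or further. Fdft1 has 1 probe, and a long non-coding RNA gene overlaps it in the RefSeq gene table. Tm7sf2, a sterol C14 reductase, read 0.46, 0.55, 0.31 and 1.12 at 4 µg/mL and -0.35, -0.65, -0.77 and -1.39 at 16 µg/mL. The doses did not overlap, with replicate 4 the highest array at the lower dose and the lowest at the higher dose. Tm7sf2 was 2.64-fold lower (difference -1.40, SE 0.24, adjusted p = 0.00127).

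Nsdhl and Dhcr7, enzymes of the late steps, had the largest rises of the group. Nsdhl, a sterol C4 decarboxylating dehydrogenase, read -1.34, -1.05, -1.29 and -1.06 at 4 µg/mL and -0.49, -0.51, -0.51 and -0.11 at 16 µg/mL. It was 1.72-fold higher with no overlap (difference 0.78, SE 0.15, adjusted p = 0.00255). Dhcr7, which makes cholesterol from 7-dehydrocholesterol, read 0.76, 1.12, 0.71 and 1.16 at 4 µg/mL and 1.41, 1.94, 2.11 and 1.38 at 16 µg/mL. The doses did not overlap, and replicates 2 and 3 were the highest arrays at 16 µg/mL. Dhcr7 was 1.71-fold higher (difference 0.78, SE 0.19, adjusted p = 0.00935). With normexp background correction in place of the deposited processed signal, neither gene was called: Nsdhl differed by 0.12 (adjusted p = 0.43) and Dhcr7 by 0.31 (adjusted p = 0.138). That setting also started from the median spot signal, added an offset of 50 and used quantile normalization in place of the 75th percentile. Its values, here and below, therefore do not show background correction alone. With quantile normalization of the processed signal, both genes kept their calls.

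Mvk, the mevalonate kinase, read -0.47, -0.18, -0.62 and 0.03 at 4 µg/mL and 0.13, 0.45, 0.35 and 0.08 at 16 µg/mL. The doses did not overlap, though the highest array at 4 µg/mL lay just below the lowest at 16 µg/mL. Mvk was 1.48-fold higher (difference 0.57, SE 0.17, adjusted p = 0.0207). Its call was lost without replicate 1 or 3 at 4 µg/mL (0.52 and 0.46) and without replicate 2 or 3 at 16 µg/mL (0.50 and 0.53).

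Pmvk, the phosphomevalonate kinase of the next step, read 1.11, 1.11, 0.95 and 1.41 at 4 µg/mL and 1.63, 1.72, 1.59 and 1.41 at 16 µg/mL. The groups met at the highest array of the lower dose and the lowest of the higher dose. Pmvk was 1.36-fold higher (difference 0.44, SE 0.13, adjusted p = 0.0215), and 0.76 higher with normexp. The call was lost with no filter on dim probes (adjusted p = 0.0515), without replicate 1, 2 or 3 at 4 µg/mL (0.43, 0.43 and 0.38) and without replicate 2 at 16 µg/mL (0.40).

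Lss, lanosterol synthase, read -1.06, -0.81, -1.07 and -0.62 at 4 µg/mL and -0.44, -0.37, -0.08 and -0.54 at 16 µg/mL. All 4 arrays at the higher dose lay above those at the lower one. The difference was 0.53 (SE 0.16, adjusted p = 0.0225), and its second probe gave 0.65 (adjusted p = 0.0157). The call of the first probe was lost with no filter on dim probes (adjusted p = 0.0541), without replicate 1 or 3 at 4 µg/mL (0.48 and 0.47) and without replicate 3 at 16 µg/mL (0.44).

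Ebp, the sterol isomerase, read 2.45, 2.45, 2.31 and 2.61 at 4 µg/mL and 2.72, 3.09, 3.15 and 2.59 at 16 µg/mL. The highest array at 4 µg/mL lay just above the lowest at 16 µg/mL. The difference was 0.43 (SE 0.15, adjusted p = 0.0369). This call was lost with no filter on dim probes (adjusted p = 0.0726), without the intensity trend (adjusted p = 0.0608) and without replicate 1, 2 or 3 at 4 µg/mL (0.43, 0.43 and 0.38) or replicate 2 or 3 at 16 µg/mL (0.37 and 0.35). On the array, Ebp was spotted 10 times, and the SD over those spots within an array had a median of 0.09, against 0.27 between the arrays at 16 µg/mL.

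Acat2, a thiolase that joins acetyl-CoA units, has 4 probes, and they disagreed. Its brightest probe read 1.48, 1.51, 1.23 and 1.76 at 4 µg/mL and 2.07, 1.89, 2.01 and 2.16 at 16 µg/mL, a difference of 0.54 (SE 0.13, adjusted p = 0.00932). The second probe went the other way, from 0.56, 0.56, 0.17 and 0.86 to -0.46, -0.28, -0.30 and -0.23, with a difference of -0.85 (adjusted p = 0.00182). The remaining probes differed by 0.30 and -0.02 and were not called. The mean over the 4 probes differed by -0.01 (adjusted p = 0.960), so no single direction holds for Acat2. In the RefSeq gene table a long non-coding RNA gene overlaps Acat2.

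The other 9 synthesis enzymes were not called, and their intervals are wide. Mvd, the last enzyme before isopentenyl pyrophosphate, differed by 0.57 (95% interval 0.07 to 1.07, adjusted p = 0.0638) and was called without replicate 4 at 4 µg/mL (0.68) and without replicate 4 at 16 µg/mL (0.74), and under median scaling, quantile normalization and array weights (0.57, 0.65 and 0.61). Sc5d, a sterol C5 desaturase, differed by -0.58 (-1.07 to -0.09, adjusted p = 0.0559) and was called lower without replicate 4 at 16 µg/mL (-0.73), with normexp (-0.36), with quantile normalization (-0.60) and with probes required on all 8 arrays (-0.58, adjusted p = 0.0473). Fdps, which makes farnesyl pyrophosphate, differed by 0.23 (-0.03 to 0.48) and passed only with quantile normalization (0.31, adjusted p = 0.0485). Msmo1, which oxidises the C4 methyl groups, differed by -0.25 (-0.54 to 0.03).

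The remaining enzymes lay close to no difference. Hmgcs1, which makes the HMG-CoA that feeds the pathway, read 1.33, 0.69, 0.90 and 1.07 at 4 µg/mL and 1.47, 0.11, 0.998 and 1.09 at 16 µg/mL. Replicate 2 at 16 µg/mL was its lowest array and the other arrays overlapped. The difference was -0.08, with an interval of -0.66 to 0.50. Sqle, the squalene epoxidase, differed by 0.11 (-0.28 to 0.50) and Cyp51, the lanosterol demethylase, by -0.15 (-0.50 to 0.20). Idi1, the isopentenyl isomerase, differed by 0.15 (-0.36 to 0.66) and Hsd17b7, a 3-ketosteroid reductase, by 0.08 (-0.40 to 0.56). The second probes of Cyp51, Idi1 and Hsd17b7 were not called either.

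**Figure D2:**
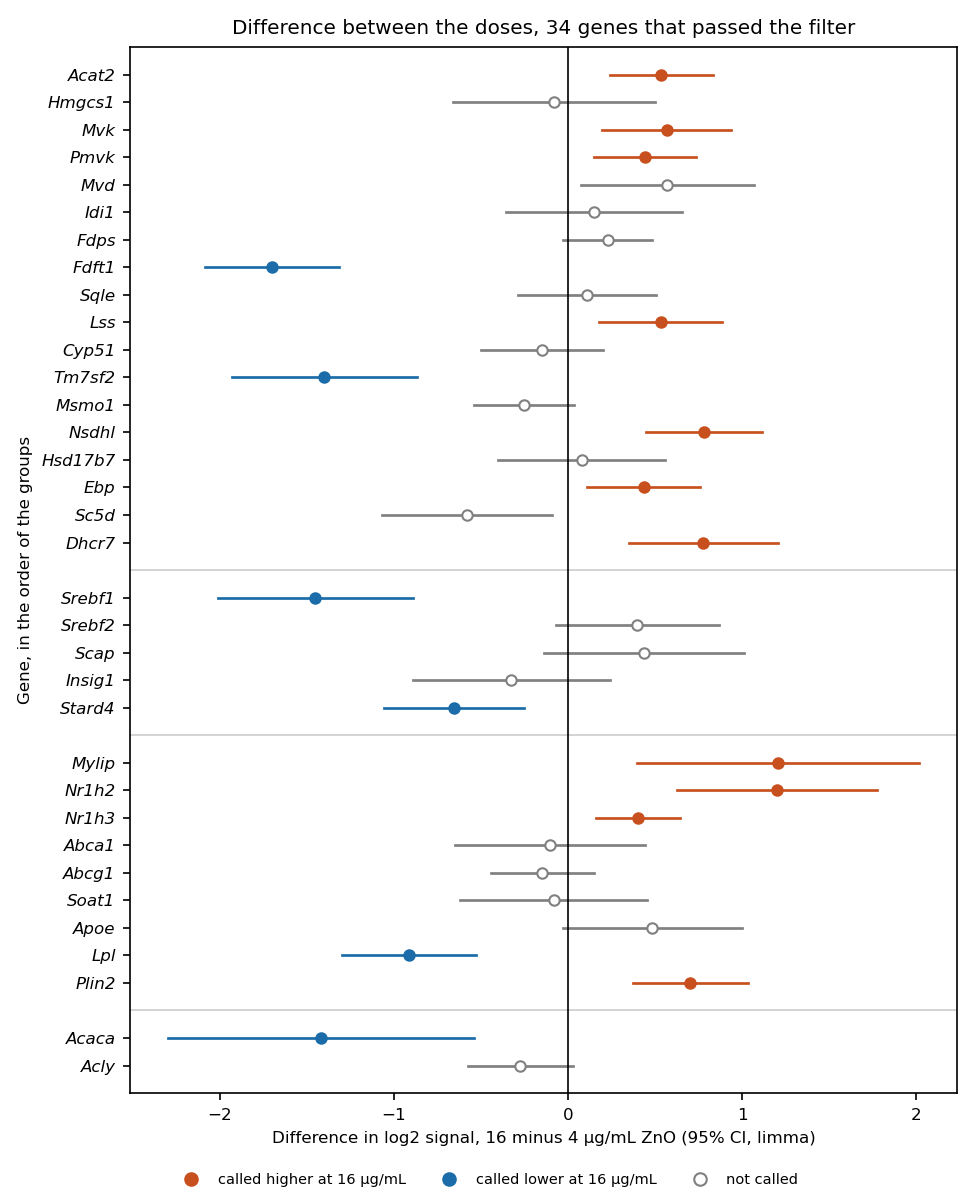
Difference in log2 signal, 16 minus 4 µg/mL ZnO (x axis), with its 95% interval from limma, for the 34 genes that passed the filter (y axis, in the order of the groups). Filled orange points were called higher (11 genes), filled blue points lower (6 genes) and open points were not called (17 genes). The largest falls are those of Fdft1, Srebf1 (by its brightest probe only), Acaca and Tm7sf2.

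Promoter sequences of the synthesis enzymes are shown because these genes are textbook targets of SREBP acting beside NF-Y and because they moved in both directions here. The RefSeq promoter table (GRCr8) held 29 of the 37 genes. It did not list Lpl, Fasn, Stard4, Abcg1, Fdft1, Sqle, Pmvk or Acaca. The 250 bases before each start were searched on both strands. The letters TCACNCCAC (a form of the sterol regulatory element) were found in 0 of the 29 promoters and in 0.976% of 27457 promoters in the table. An element with other letters or further from the start would be missed, so these promoters are not shown to lack one. CCAAT (the NF-Y box) was found in 19 of 29 (65.5%, against 34.3% of all promoters) and CACGTG (an E-box) in 5 of 29 (17.2%, against 5.79%). None of these letter strings contains another. The first 4 promoters below belong to genes that were higher at 16 µg/mL and the last to a gene that was lower, and capitals mark CCAAT or its reverse complement. Mvk and Nsdhl each hold 5 boxes, Lss and Tm7sf2 1 each and Dhcr7 none, so the box is present in genes called in either direction.
Mvk, chr12:47819504-47819753, minus strand: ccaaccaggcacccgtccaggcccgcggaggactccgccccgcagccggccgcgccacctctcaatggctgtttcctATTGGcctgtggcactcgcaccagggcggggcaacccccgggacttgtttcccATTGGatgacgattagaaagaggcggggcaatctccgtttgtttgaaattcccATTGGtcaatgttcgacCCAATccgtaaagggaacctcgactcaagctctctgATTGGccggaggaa
Lss, chr20:12118231-12118480, minus strand: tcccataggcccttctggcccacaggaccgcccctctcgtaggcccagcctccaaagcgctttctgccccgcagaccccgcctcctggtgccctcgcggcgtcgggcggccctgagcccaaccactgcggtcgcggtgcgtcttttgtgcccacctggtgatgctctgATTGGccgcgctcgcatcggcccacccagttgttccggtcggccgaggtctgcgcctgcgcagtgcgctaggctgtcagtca
Nsdhl, chrX:155817110-155817359, plus strand: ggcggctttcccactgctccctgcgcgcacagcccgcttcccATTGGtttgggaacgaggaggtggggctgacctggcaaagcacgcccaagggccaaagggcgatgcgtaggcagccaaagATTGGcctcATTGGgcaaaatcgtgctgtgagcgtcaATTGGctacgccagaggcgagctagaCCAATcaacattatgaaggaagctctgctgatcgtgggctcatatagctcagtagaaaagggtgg
Dhcr7, chr1:208444184-208444433, plus strand: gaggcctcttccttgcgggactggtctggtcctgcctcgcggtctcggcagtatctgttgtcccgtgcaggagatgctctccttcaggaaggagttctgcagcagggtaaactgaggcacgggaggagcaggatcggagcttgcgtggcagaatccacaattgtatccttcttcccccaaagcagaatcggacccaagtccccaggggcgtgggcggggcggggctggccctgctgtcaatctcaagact
Tm7sf2, chr1:212789542-212789791, minus strand: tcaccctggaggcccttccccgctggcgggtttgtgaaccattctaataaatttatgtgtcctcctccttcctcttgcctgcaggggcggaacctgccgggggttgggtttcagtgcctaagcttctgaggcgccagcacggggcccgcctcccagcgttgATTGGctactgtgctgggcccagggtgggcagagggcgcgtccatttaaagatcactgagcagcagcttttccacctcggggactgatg

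The 6 SREBP control genes behaved differently from each other. Of the 5 that passed the filter, 0 were called higher, 2 lower and 3 not called, with a median of -0.33. Over all genes tested, 19.8% were called higher and 21.9% lower. Among the control genes, Srebf1 had the largest difference, by its brightest probe. Without replicate 4 at 16 µg/mL, 2 of them, Srebf2 and Scap, were called higher.

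Srebf1 encodes SREBP-1, whose targets include fatty acid genes. Its brightest probe read 0.04, 0.22, 0.09 and 0.40 at 4 µg/mL and -1.40, -0.77, -0.87 and -2.01 at 16 µg/mL. The doses were well apart, and at 16 µg/mL replicate 4 was the lowest array. This probe was 2.73-fold lower (difference -1.45, SE 0.25, adjusted p = 0.0014). The second Srebf1 probe rose, from -1.92, -1.87, -2.03 and -1.35 to -1.28, -0.73, -0.52 and -1.34, with a difference of 0.82 (adjusted p = 0.0159). The mean over both probes differed by -0.31 (adjusted p = 0.301), so the direction for Srebf1 depends on the probe. Rai1 overlaps Srebf1 in the RefSeq gene table, and the place of each probe in the transcript was not used here.

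Stard4, a carrier of cholesterol between membranes, was lower. It read 0.46, -0.11, 0.33 and 0.37 at 4 µg/mL and -0.17, -0.67, -0.60 and -0.11 at 16 µg/mL. The lowest array at 4 µg/mL, replicate 2, lay just above the highest at 16 µg/mL. The difference was -0.65 (SE 0.18, adjusted p = 0.0158), and under median scaling it was not called (-0.66, adjusted p = 0.166). Its second probe did not pass the filter.

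Srebf2, which encodes the SREBP of cholesterol synthesis and hosts Mir33 in the RefSeq gene table, read 1.69, 1.88, 1.67 and 2.19 at 4 µg/mL and 2.14, 2.53, 2.66 and 1.69 at 16 µg/mL. Replicate 4 at 16 µg/mL lay among the arrays at 4 µg/mL, while the other 3 lay near or above the highest of them. The difference of 0.40 (95% interval -0.07 to 0.87, adjusted p = 0.153) was not called, but it was without replicate 4 at 16 µg/mL (0.59, adjusted p = 0.022) and under median scaling (0.40, adjusted p = 0.0187). Scap, the SREBP escort, had the same layout: 0.96, 1.33, 1.22 and 1.50 at 4 µg/mL and 1.44, 2.17, 2.18 and 0.97 at 16 µg/mL. Its difference of 0.44 (-0.14 to 1.01, adjusted p = 0.198) was called without replicate 4 at 16 µg/mL (0.68, adjusted p = 0.0249) and under median scaling (0.44, adjusted p = 0.0357).

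Insig1, a retention protein whose own gene is an SREBP target, read 2.08, 1.90, 2.06 and 0.97 at 4 µg/mL and 1.66, 1.06, 1.23 and 1.75 at 16 µg/mL. Replicate 4 was far below the other arrays at 4 µg/mL and produced the overlap. The difference was -0.33 (-0.89 to 0.24, adjusted p = 0.33), and without that array it was called lower (-0.59, adjusted p = 0.0251). The second Insig1 probe differed by 0.37 (adjusted p = 0.128), so the probes pointed in opposite directions. Insig2 cleared background on 1 of 4 arrays at the lower dose and on 2 of 4 at the higher dose, and was not tested.

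**Figure D3:**
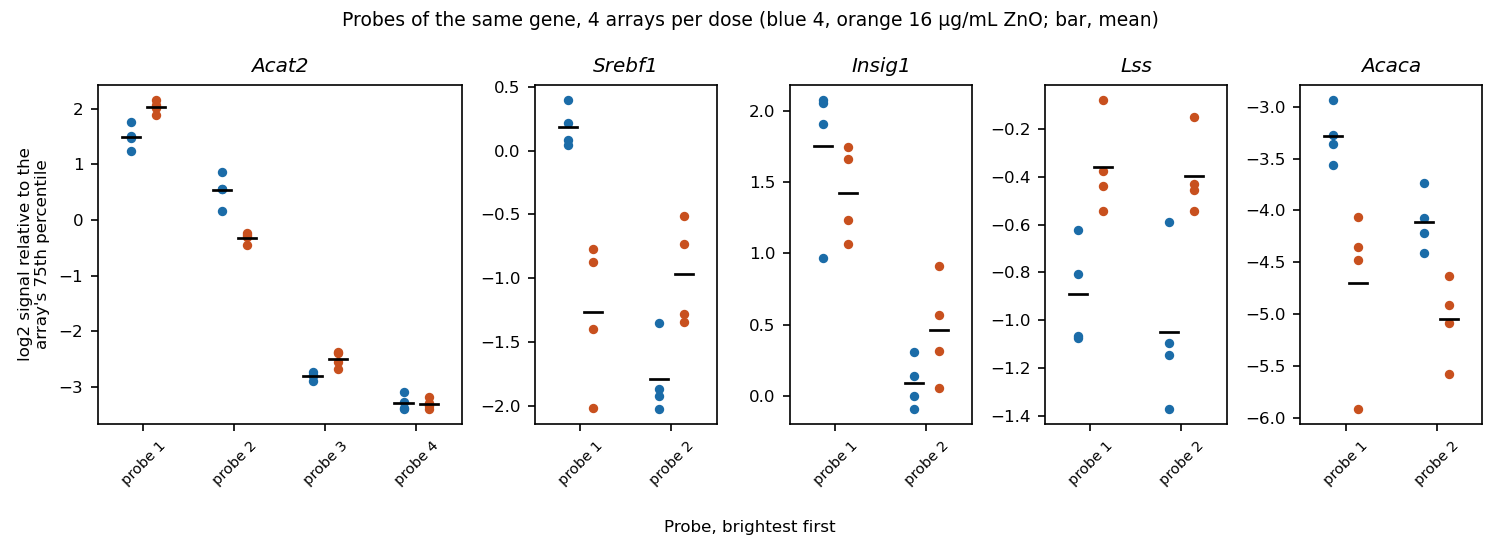
Log2 signal relative to the array's 75th percentile (y axis) for each probe of 5 genes with more than 1 probe (x axis, brightest probe at the left of each panel). Points are arrays (blue, 4 µg/mL; orange, 16 µg/mL) and bars are means of 4 arrays. The first and second probes of Acat2 and of Srebf1 moved in opposite directions, while both probes of Lss rose and both of Acaca fell. Both Acaca probes passed the filter through 4 µg/mL alone.

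In all, 9 of the 37 genes had more than 1 probe and 8 had more than 1 that passed the filter. For 2 of these 8, Acat2 and Srebf1, probes were called in opposite directions, and for Lss and Acaca the probes were called in the same direction. Both Acaca probes passed the filter through 4 µg/mL alone. The filter therefore favoured a fall in each, and their shared direction is not independent of it.

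All 9 genes of LXR, efflux and lipid handling passed the filter. In this group 4 were higher, 1 was lower and 4 were not called, with a median difference of 0.40. Over all genes tested, 19.8% were called higher and 21.9% lower. The 4 higher genes of the group were both receptor genes, the ubiquitin ligase gene Mylip and the droplet coat gene Plin2. The transporters Abca1 and Abcg1, which export sterol and are textbook LXR targets, were not called.

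Mylip encodes a ubiquitin ligase of the lipoprotein receptors and is itself an LXR target. It read -4.03, -4.13, -3.83 and -4.41 at 4 µg/mL and -2.51, -2.01, -3.74 and -3.31 at 16 µg/mL. Replicate 3 at 16 µg/mL lay just above the arrays at 4 µg/mL and replicate 2 was the highest. The fitted difference was 1.21 (SE 0.37, adjusted p = 0.0235), or 0.54 with normexp. The probe is dim: 2 of 4 arrays at 4 µg/mL and 3 of 4 at 16 µg/mL read it well above background, so it entered the test through the dose at which it was brighter and the size of its difference is uncertain. With replicate 1, 2 or 4 at 16 µg/mL left out it no longer passed the filter.

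Nr1h2, which encodes LXR beta, read 1.31, 1.33, 1.18 and 1.05 at 4 µg/mL and 2.25, 3.02, 2.78 and 1.62 at 16 µg/mL. No arrays overlapped, and at the higher dose replicates 2 and 3 stood above 1 and 4. Nr1h2 was 2.30-fold higher (difference 1.20, SE 0.26, adjusted p = 0.00468), and 5.40% of all genes rose as far or further. Nr1h3, which encodes LXR alpha, read 3.65, 3.81, 3.57 and 3.57 at 4 µg/mL and 3.98, 4.10, 4.15 and 3.97 at 16 µg/mL. Its arrays were close within each dose and did not overlap. The rise was smaller, 1.32-fold (difference 0.40, SE 0.11, adjusted p = 0.0146), and was not called with normexp (0.25, adjusted p = 0.0658) or with no filter on dim probes (0.40, adjusted p = 0.0587). Acp2 overlaps Nr1h3 in the RefSeq gene table.

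Plin2, which coats lipid droplets, read 1.80, 2.15, 2.31 and 2.17 at 4 µg/mL and 2.69, 2.69, 2.74 and 3.13 at 16 µg/mL. All arrays at 16 µg/mL lay above those at 4 µg/mL, with replicate 4 the highest. Plin2 was 1.63-fold higher (difference 0.70, SE 0.15, adjusted p = 0.00429). Lpl, the lipase that frees fatty acids from lipoproteins, went the other way, from 1.68, 1.65, 1.80 and 1.29 to 1.04, 0.65, 0.31 and 0.77. The doses did not overlap, and Lpl was 1.88-fold lower (difference -0.91, SE 0.17, adjusted p = 0.00227).

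Apoe, a sterol acceptor that macrophages secrete, read -3.64, -3.55, -4.23 and -3.62 at 4 µg/mL and -3.24, -3.23, -3.28 and -3.34 at 16 µg/mL. The doses did not overlap, but replicate 3 at 4 µg/mL was far below its group, and the difference of 0.49 (95% interval -0.028 to 0.998, adjusted p = 0.116) was not called. It passed only without the intensity trend (adjusted p = 0.048). Within an array the 10 spots of Apoe had a median SD of 0.30, the largest among the genes spotted 10 times, where the others had 0.07 to 0.11.

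Abcg1 read 5.16, 5.36, 5.44 and 5.49 at 4 µg/mL and 5.16, 5.32, 5.41 and 4.97 at 16 µg/mL, and the doses overlapped. It differed by -0.15 (-0.44 to 0.15). Abca1 differed by -0.10 (-0.65 to 0.44) and Soat1, which esterifies cholesterol for storage, by -0.08 (-0.62 to 0.46). These intervals are wide, and a lack of change is not shown for either gene.

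In the fatty acid group only 2 of 4 genes could be measured. Fasn, the fatty acid synthase, and Scd, a desaturase, cleared background on 0 of the 8 arrays. Acaca, the acetyl-CoA carboxylase that makes malonyl-CoA, read -3.27, -3.36, -3.56 and -2.93 at 4 µg/mL and -4.06, -4.47, -5.91 and -4.35 at 16 µg/mL. All arrays at the higher dose were lower, with replicate 3 the lowest. This probe cleared background on 4 of 4 arrays at the lower dose and on 1 of 4 at the higher dose, so it too entered the test through its brighter dose. Replicate 3 at 16 µg/mL read below the lowest level well above background on that array. The fitted difference was -1.42 (SE 0.40, adjusted p = 0.0164), or -0.24 with normexp (adjusted p = 0.0233). With that array set to its lowest level well above background, the mean at 4 µg/mL was 2.23-fold that at 16 µg/mL, and with 3 of 4 arrays near background the size of the fall is uncertain.

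At 16 µg/mL the second Acaca probe was not well above background in any replicate. Its measured means were -4.11 at 4 µg/mL and -5.05 at 16 µg/mL, and the fitted difference was -0.94 (adjusted p = 0.0356). This probe also entered the test through its brighter dose. With a floor on its levels at 16 µg/mL it was 1.69-fold lower. That figure sets the mean at 4 µg/mL against, on each array at 16 µg/mL, the higher of the probe's own level and the lowest level well above background. It has no p-value of its own. Some own levels not well above background entered it, so it is not a strict minimum. Acly, which supplies cytosolic acetyl-CoA to both fatty acid and sterol synthesis, read 3.47, 3.44, 3.56 and 3.77 at 4 µg/mL and 3.56, 3.10, 3.14 and 3.36 at 16 µg/mL. The doses overlapped through replicate 1, and the difference was -0.27 (95% interval -0.57 to 0.03, adjusted p = 0.131).

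**Figure D4:**
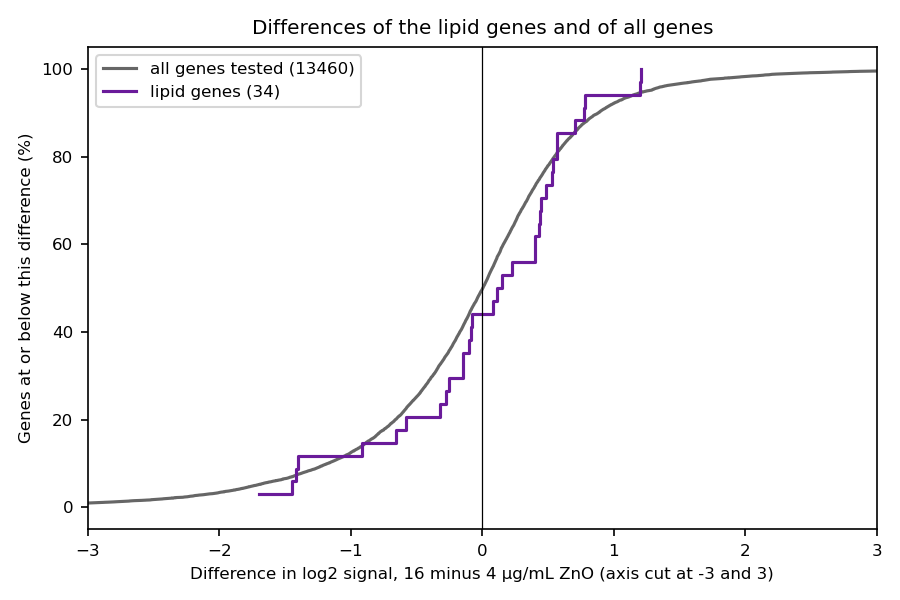
Cumulative share of genes (y axis, percent) at or below each difference in log2 signal, 16 minus 4 µg/mL ZnO (x axis, drawn from -3 to 3). The grey curve holds the 13460 genes tested and the purple steps the 34 lipid genes; the curves cross the 50% line at medians of 0.00 and 0.13.

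Other genes of these pathways were described by the same fit. The counts of each list stand beside 19.8% called higher and 21.9% lower over all genes tested. Whether any list differs from these shares was not tested. Of 11 other mevalonate and sterol genes that passed the filter, 4 were higher and 1 lower, with a median of 0.45. Gpr146, a receptor linked to SREBP activity, was 1.12 higher (SE 0.22, adjusted p = 0.00276; 0.52 with normexp). Mbtps1, the protease that makes the initial cut in SREBP, was 1.64 higher (SE 0.38, adjusted p = 0.00642), with replicate 4 at 4 µg/mL at -1.70 against -0.02 to 0.39 on the other 3 arrays of that dose.

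In the isoprenoid branch, which attaches farnesyl and geranylgeranyl groups to proteins, 2 of 12 genes were higher and 1 lower. Rabggtb, the beta subunit of the enzyme that prenylates Rab proteins, differed by -1.77 (SE 0.15, adjusted p = 1.2e-05; -1.14 with normexp), while Rabggta, its alpha subunit, was 2.54 higher (SE 0.62, adjusted p = 0.00835; 1.55 with normexp). Rabggta had an SD of 1.44 at 4 µg/mL, where replicate 4 read -5.18 and the other arrays -2.49 to -2.15.

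Sterol transport and storage counted 4 higher and 2 lower of 18. Gramd1a, which moves sterol from the plasma membrane to the endoplasmic reticulum, was 0.90 higher (SE 0.19, adjusted p = 0.00386; 0.55 with normexp), and Osbpl2, an oxysterol-binding protein, differed by -0.74 (SE 0.14, adjusted p = 0.00218) and not called under median scaling (adjusted p = 0.0657).

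Among 8 further genes of fatty acid synthesis and desaturation, 3 were higher and 1 lower. Slc25a1, the mitochondrial citrate carrier, was 0.78 higher (SE 0.21, adjusted p = 0.0128). Fatty acid uptake and oxidation had 4 higher and 1 lower of 25. Slc27a1, a fatty acid transport protein, was 1.40 higher (SE 0.28, adjusted p = 0.00324).

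Triglyceride and droplet genes had 6 higher and 1 lower of 13, with a median of 0.41. Cidec, a droplet fusion protein, was 0.98 higher (SE 0.18, adjusted p = 0.00199; 0.59 with normexp). G0s2, an inhibitor of the droplet lipase, differed by -0.91 (SE 0.17, adjusted p = 0.00226). With no scaling, every gene named here from these lists as higher lost its call, except Rabggta.

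Within the arrays at 16 µg/mL, replicates 2 and 3 read above 1 and 4 for 11 of the 34 lipid genes (32.4%, against 35.8% of all genes) and below them for 12 (35.3%, against 25.7%). Among the genes with replicates 2 and 3 above were Nr1h2, Dhcr7, Srebf2 and Scap, and among those below were Lpl, Stard4 and Sc5d. These arrays also had the lowest 75th percentile signals, and the part of that in the spread between replicates was not tested. Across the 34 genes the median SD between arrays was 0.22 at 4 µg/mL and 0.29 at 16 µg/mL, against 0.22 and 0.30 for all genes.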

How the data were processed

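Cy3-labelled cRNA was hybridised to Agilent arrays with 1 colour, per the labels' protocols. Spots were quantified with Agilent Feature Extraction 11.0.1.1, as the submitters' processing notes name it. The measure used is its processed signal, a linear intensity from which the background had been subtracted and a spatial trend removed, per the file headers; it was not scaled between arrays. Deposited 0 or 1 flags mark spots above background, saturated or outlying.

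Control spots were left out, spots flagged as non-uniform or as outliers were set to missing, and log2 signal minus each array's 75th percentile was averaged over the spots of a probe. A probe was kept when it cleared background on at least 3 of 4 arrays of a dose, and the brightest stood for its gene. Unversioned accessions were looked up in a RefSeq gene table (GRCr8), which named 21109 of 45598 probes (46.3%). The two-sided test was that of limma 3.58.1, run in R 4.3.3: lmFit and eBayes, whose prior variance followed mean intensity. Its p-values were adjusted by Benjamini and Hochberg's method over all genes, and the script was checked on simulated data. Other probes of a gene come from the same fit on all probes. The number of arrays limits the precision.

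The members, groups, pathway lists and markers were chosen with earlier results of these data known. All 37 members are described, with values on every array for those called. From each pathway list at most 3 called genes, those with the largest differences, could be named. The 20 alternatives are other scalings, background correction, filters, probe choice, spot masks, other fits, and each array left out in turn. The normexp alternative changed the starting signal, the background correction and the scaling together.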

Additional observations from a re-analysis of the deposited data

Results flagged for a closer look

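In 4 of 68 sets of 4 arrays (34 genes at 2 doses), 1 array stood far from the other 3 by Dixon's criterion, which chance meets in about 1 of 20 sets. Nsdhl read -0.11 on replicate 4 at 16 µg/mL, against -0.51 to -0.49 on the other arrays of that dose. Plin2 read 3.13 on the same array, against 2.69 to 2.74. Insig1 read 0.97 on replicate 4 at 4 µg/mL, against 1.90 to 2.08, and without that array it was called lower (-0.59, adjusted p = 0.0251). Apoe read -4.23 on replicate 3 at 4 µg/mL, against -3.64 to -3.55.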

How the results depend on the processing

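Among the called genes that all 20 alternatives tested, Fdft1, Tm7sf2 and Lpl (3) kept call and direction in all of them. With no scaling set aside, Nr1h2 and Plin2 did too (5). Each of these 5 genes was read by 1 probe in 1 spot, so the mean over probes could not test its direction. Acaca was tested in 19 alternatives and Mylip in 16; the filter removed their dim probes in the rest, among them the setting that needs all 8 arrays above background, so these calls are not shown to be stable. Leaving out 1 array at a time gave 7 to 13 lipid genes called higher and 6 or 7 called lower, 1953 to 2695 of all genes called higher and 2295 to 2836 lower. With no filter on dim probes 7 lipid genes were called higher, beside 2146 of the 39505 features then tested. No scaling gave 0 lipid genes higher and 10 lower, and 229 and 4417 of all genes, of whose calls 4.93% were higher, against 47.6% in the scaled data and 63.2% with median scaling (3405 higher, 1980 lower; the median gene shifted by 0.17). The mean over probes turned Acat2 to -0.0092; its probes differ in direction. For the other changes the cause was not tested. Replicate numbers follow array position, and deviations of same-numbered arrays correlated at 0.25, 0.40, -0.22 and -0.03. Arrays with different numbers were not compared, so whether the numbers pair samples was not tested. With a replicate block 2591 genes were higher and 2881 lower, and 10 and 7 lipid genes; Ebp was not called (adjusted p = 0.0661) and Sc5d was (adjusted p = 0.0411). Signal over background limits Mylip, Acaca, Insig2, Fasn and Scd, and a different slide for each dose limits every difference.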
